A study of Arabidopsis thaliana with 15 samples.

Results

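EMB genes of Arabidopsis thaliana are genes whose mutants were named embryo defective, because seeds without a working copy stop at an early stage or form an abnormal embryo. Members were taken by name alone, as nuclear protein-coding genes of the RefSeq gene table whose symbol is EMB or emb followed by a number, which gave 160 genes of 27444. The rule uses names and no histone value, although the group was picked for description with earlier results of these data known. The need for each gene in the embryo was not measured here.

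Whole seedlings of accession Col-0, grown for 8 days in long days, were profiled by ChIP-seq on native chromatin, released by micrococcal nuclease without crosslinking. The 15 libraries comprised MNase input, total H3, H3K4me2, H3K4me3 and H3K36me3 in 3 genotypes: the fpa single mutant fpa-7, the bdrs triple mutant and wild type, with 1 library per assay and genotype. For the MNase library of bdrs the labels give both 7 and 8 days. The values described are those of 3 deposited lists of peaks, 1 per methylation mark, each made by setting the pooled mark against the pooled H3 signal. They hold no value for a single genotype or library, so they carry no replicate error, their read depth is unknown, and mutants and wild type cannot be compared from them. A gene was taken to carry a mark where peaks of its list covered 200 bp or more of the gene body.

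Many EMB proteins do basic work that every plant cell needs. They build ribosomes, charge tRNAs, splice and edit organelle RNA, copy DNA or import proteins into plastids. H3K4me3 is a mark of the first nucleosomes of transcribed genes, H3K4me2 often lies just downstream of it and is also found on genes with little transcription, and H3K36me3 is laid down over the body of genes during transcription by RNA polymerase II.

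Nearly every EMB gene carried all 3 marks in these seedlings. The state with H3K4me2, H3K4me3 and H3K36me3 was found on 148 of the 160 EMB genes (92.5%), against 46.5% of all nuclear protein-coding genes. H3K4me2 was carried by 153 EMB genes (95.6%), beside 74.8% of all genes. H3K4me3 was carried by 156 EMB genes (97.5%), beside 62.5% of all genes, and H3K36me3 by 153 EMB genes (95.6%), beside 49.8% of all genes. Only 1 EMB gene (0.625%) carried no mark, where 21.7% of all genes had none. H3K4me2 alone was found on 2 EMB genes (1.25%) and on 15.2% of all genes. On every chromosome the EMB share with all 3 marks was high, from 32 of 38 genes on chromosome 1 (84.2%) to 42 of 43 on chromosome 5 (97.7%), while the shares of all genes lay between 44.0% and 47.9%. These shares describe the lists and were not tested, because genes are not replicates.

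**Figure D1:**
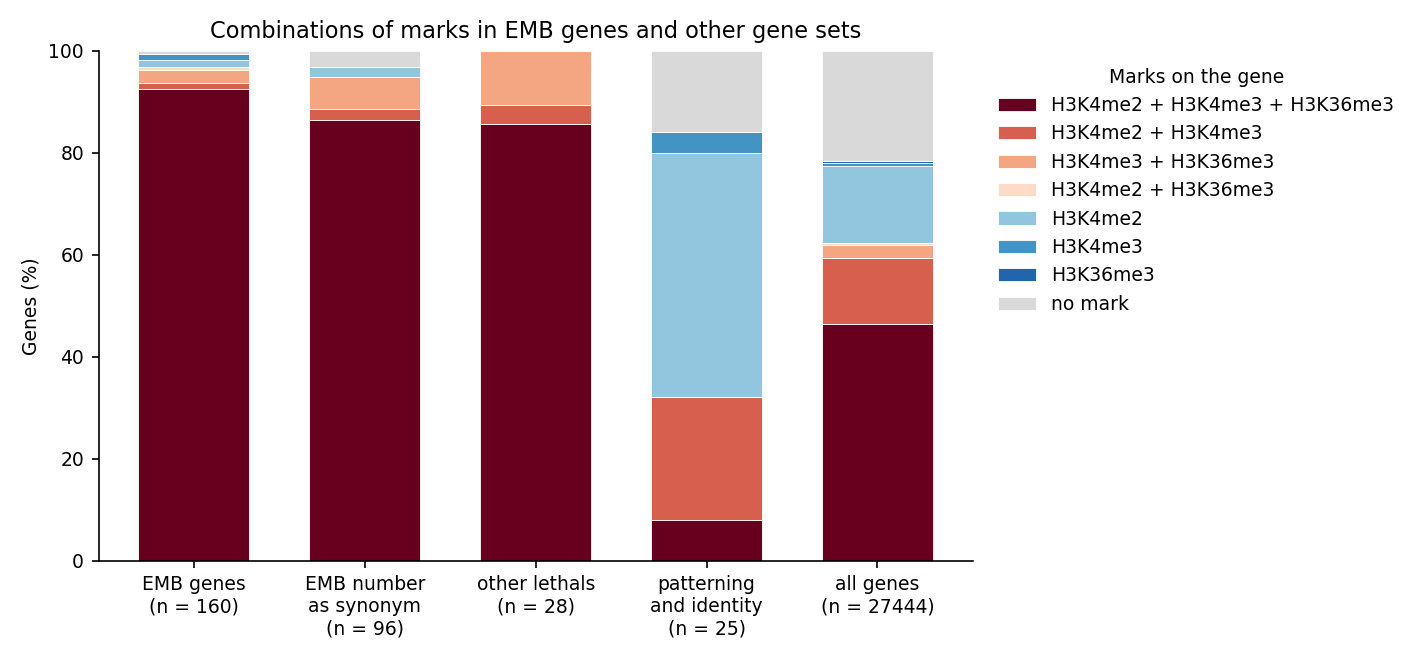
Bars give the percentage of genes in each combination of marks, from left to right for the EMB genes, genes with an EMB number only among their synonyms, other genes recalled as needed in embryo or seed, patterning and identity regulators, and all nuclear protein-coding genes; some genes stand in more than 1 of the middle sets. The state with all 3 marks fills 92.5% of the EMB bar and 46.5% of the bar for all genes.

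EMB genes are longer than most genes, and long genes carry peaks more often, so the shares were also read within classes of gene length. EMB genes had a median length of 2989 bp (420 to 14915 bp), against 2078 bp for all genes. All 3 marks were on 13 of 16 EMB genes under 1500 bp (81.2%), against 16.0% of all genes of that length. From 1500 bp to below 3000 bp they were on 58 of 65 EMB genes (89.2%), against 54.3% of all genes. From 3000 bp to below 5000 bp the count was 45 of 47 EMB genes (95.7%), against 66.7% of all genes. All 32 EMB genes of 5000 bp or more carried the 3 marks, against 78.0% of all genes. The EMB share was thus the higher in each of the 4 classes. The gap was widest among short genes, where H3K36me3 was on 15 of 16 EMB genes and on 19.9% of all genes. That class is not matched for length within itself, as it reaches down to 3 bp for all genes but only to 420 bp for EMB genes. Genes shorter than the cover rule cannot carry a mark under it. The part of length in this widest gap was not tested.

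**Figure D2:**
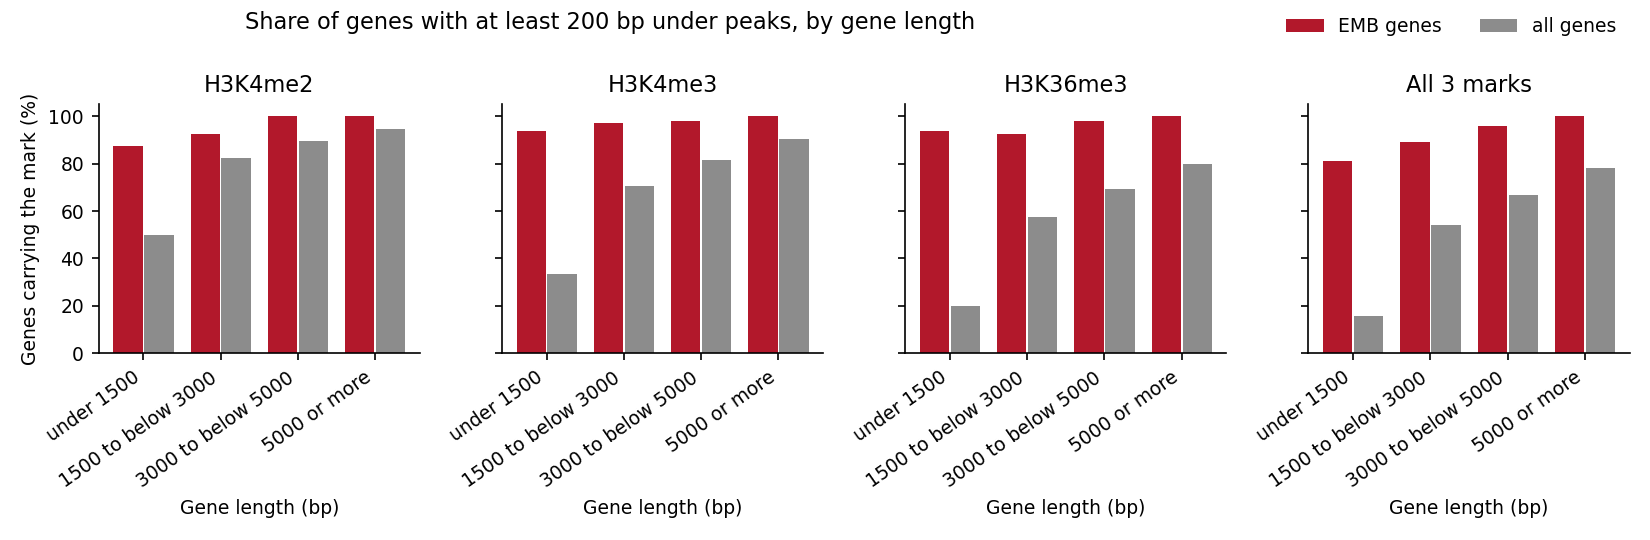
Bars show the percentage of genes carrying each mark, and all 3 marks, in 4 classes of gene length in bp, with EMB genes left of all genes. EMB bars lie between 81.2% and 100% in every panel, while those of all genes climb with length, for all 3 marks from 16.0% in the shortest class to 78.0% in the longest.

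How far the marks reached into EMB genes differed by mark. H3K4me3 covered a median of 814 bp of the EMB carriers (297 to 1817 bp), beside 838 bp over all carriers. That length hardly moved with gene size, with medians of 821, 795, 850 and 808 bp from the shortest to the longest class of EMB genes. H3K36me3 covered a median of 1845 bp (587 to 12903 bp), beside 1598 bp over all carriers, and grew with the gene, with medians of 980, 1458.5, 2309 and 4609 bp over the same classes. H3K4me2 lay between them, at 1108 bp in EMB carriers and 1040 bp in all carriers. Across the 148 EMB genes with all 3 marks, Spearman's rho between gene length and covered length was 0.91 for H3K36me3, 0.46 for H3K4me2 and 0.08 for H3K4me3. The same values over the 12760 genes with all 3 marks were 0.79, 0.41 and 0.13. A covered length cannot exceed the gene, so part of each relation is fixed by construction, and the values are given as description.

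**Figure D3:**
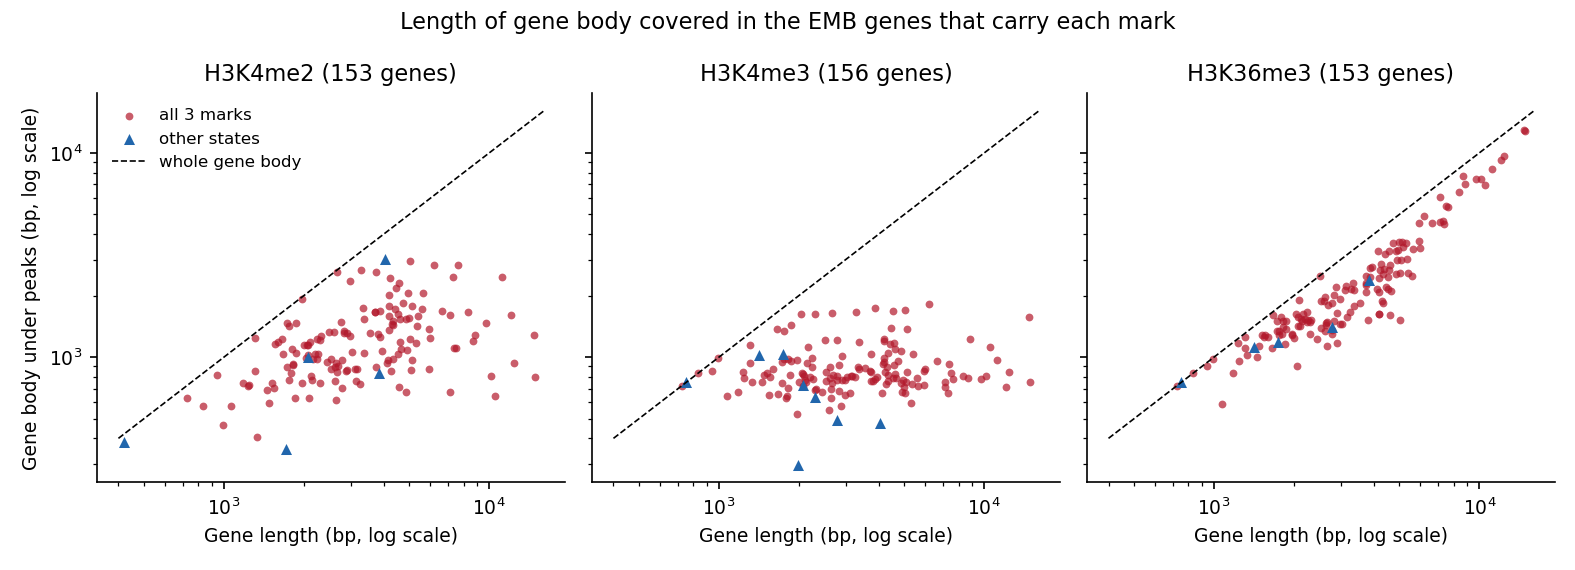
Each point is an EMB gene that carries the mark, with gene length in bp on the x axis and gene body under peaks in bp on the y axis, both on log scales; circles are genes with all 3 marks, triangles are genes in other states and the dashed line is full cover. H3K36me3 points rise with gene length below the dashed line, at a median cover of 67.6% of the body, and most H3K4me3 points stay near the median of 814 bp at any length.

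The longest EMB genes give examples. EMB3142, which encodes the nucleoporin NUP205, is 14915 bp long and had an H3K36me3 peak of 12773 bp on chromosome 5 from 20804776 to 20817548 (TAIR10). Its H3K4me3 peaks covered 752 bp and its H3K4me2 peaks 798 bp, about 5.04% and 5.35% of the gene. EMB2771, the anaphase promoting complex subunit APC1, is 14733 bp long and had an H3K36me3 peak of 12239 bp on chromosome 5 from 1641047 to 1653285. Its H3K4me3 cover was large too, 1574 bp in 2 peaks, and its H3K4me2 cover was 1282 bp. Next by length under H3K36me3, and named after their values were seen, came the plastid import gene emb2410 (TIC236) with 9673 bp and the m6A writer gene EMB2016 (Virilizer) with 9177 bp. Their H3K4me3 peaks covered 847 and 713 bp. At the other end, EMB3136, for protein L10 of the plastid ribosome, is 834 bp long and was covered by H3K4me3 and H3K36me3 over its whole body, by peaks that also lie on a neighbouring gene.

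Within the gene body the marks followed the same order in EMB genes as elsewhere. The gene table gives no strand, so genes with a single H3K4me3 summit in an outer part of the body (33.3% of its length at either end) were read from the end nearer that summit, which applied to 143 EMB genes and 14667 genes in all. The choice of end fixes where H3K4me3 lies, and the other marks were free to lie anywhere. The H3K36me3 summit was a median of 300 bp from that end in 139 EMB genes (middle 50% from 241 to 389 bp), beside 328 bp over all genes. H3K4me2 summits lay further in, at a median of 634 bp in 137 EMB genes (544 to 750 bp) and 599 bp in all genes. At 51.3% of the gene length, H3K36me3 peaks still covered 88.1% of these EMB genes, while H3K4me2 peaks covered 36.4% and H3K4me3 peaks 18.2%. For all genes read in this way the cover at that point was 73.2%, 49.5% and 26.5%. These values also hold how many genes carry each mark. Among carriers alone, H3K36me3 covered that point in 90.6% of 139 EMB genes, against 89.1% of all carriers, so the gap in H3K36me3 was mostly one of carriage. For H3K4me2 the cover among carriers was 37.96% of 137 EMB genes, against 51.9% of all carriers, and for H3K4me3 it was 18.2% of 143 EMB genes, against 26.5%. EMB genes are also the longer genes, and the part of gene length in this was not tested.

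**Figure D4:**
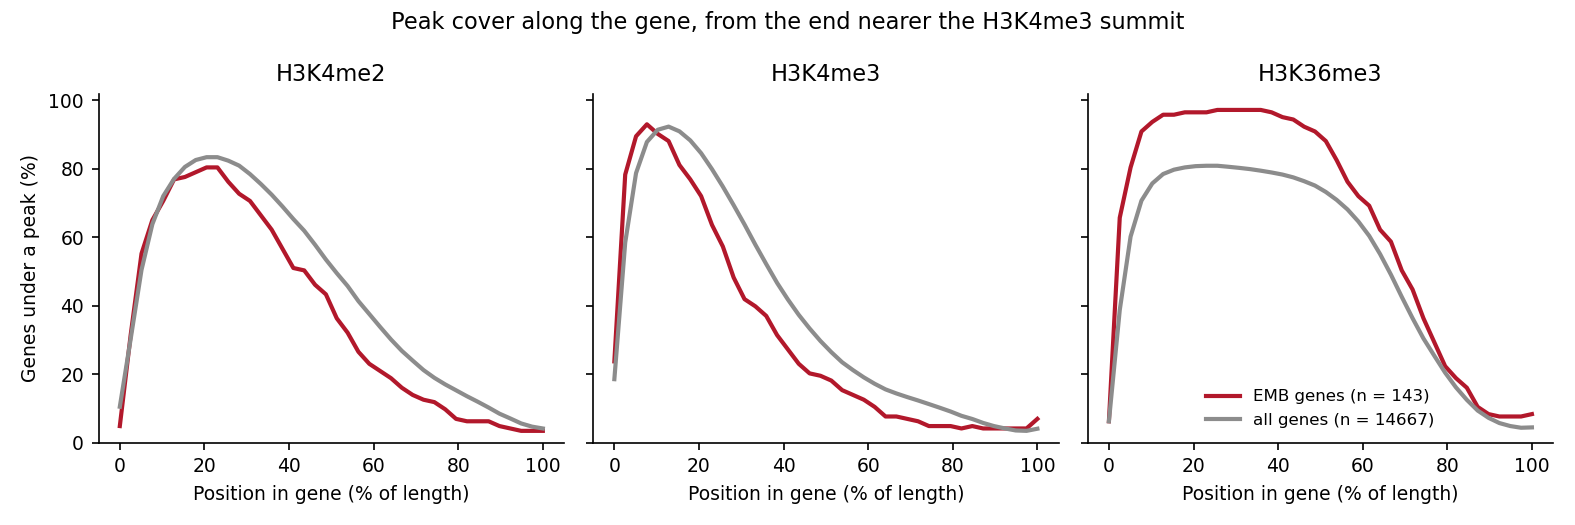
Lines give the percentage of genes under a peak at 40 points along the gene, from the end nearer the H3K4me3 summit (0%) to the other end (100%), for 143 EMB genes and 14667 genes in all. At mid gene H3K36me3 covers 88.1% of the EMB genes and 73.2% of all genes, and H3K4me3 covers 18.2% and 26.5%; among H3K36me3 carriers alone the cover there is 90.6% and 89.1%.

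H3K4me3 and H3K36me3 peaks on EMB genes ranked high in their lists, and H3K4me2 peaks did not. The fold of each peak is the peak caller's own ratio of mark over pooled H3, and it ranks peaks only within one list. For H3K4me3 the median fold of the peak covering most of the gene was 9.70 on EMB genes (3.23 to 12.8) and 8.96 on all carriers, and 117 of 156 EMB carriers (75%) lay above that second value. For H3K36me3 the medians were 6.00 on EMB genes (3.01 to 8.48) and 5.71 on all carriers, with 97 of 153 EMB genes (63.4%) above it. For H3K4me2 they were 3.45 on EMB genes (1.92 to 8.02) and 3.47 on all carriers, with 76 of 153 above it. The H3K4me3 and H3K36me3 differences were in the same direction in all 4 length classes. They were widest under 1500 bp (15 EMB carriers of each), at 9.74 against 8.18 for H3K4me3 and 6.71 against 5.39 for H3K36me3. At 5000 bp or more they were 9.60 against 9.27 and 5.98 against 5.86. For H3K4me2 the direction changed with length, from 2.68 against 3.35 under 1500 bp to 3.90 against 3.41 at 5000 bp or more. Across the 148 EMB genes with all 3 marks, the H3K4me3 and H3K36me3 folds ranked alike (Spearman's rho 0.70, beside 0.72 over all such genes), while H3K4me2 and H3K36me3 folds tended to rank in opposite order (rho -0.33, beside -0.30). All 3 lists were called against pooled H3, so these ratios share a denominator. From whole seedlings, a mark on fewer cells and a weaker mark in every cell cannot be told apart.

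The members with the strongest H3K4me2 peaks differed from those with the strongest H3K4me3 and H3K36me3 peaks, which were partly the same genes. By −log10 p, the first H3K4me3 peak among the members lay on EMB3143, on chromosome 5 from 23558577 to 23560616, with a fold of 12.2, and it covers a second gene as well. It was followed by EMB2761, a threonyl-tRNA synthetase gene, with a peak on chromosome 2 from 1700447 to 1701330 at a fold of 12.8, and by EMB2762 (NOC4, a nucleolar protein of ribosome assembly), on chromosome 2 from 7499495 to 7500342 at a fold of 12.5. EMB2761 and EMB2762 also led the H3K36me3 list of the members, with folds of 8.45 and 8.48, and EMB1080, for protein S11 of the cytosolic ribosome, came next with 8.42. These H3K36me3 peaks were the 95th, 107th and 121st of their list by −log10 p. The first H3K4me2 peaks belonged to other members: EMB2656, the condensin subunit CAP-G (fold 8.02, chromosome 5 from 14947274 to 14948996), EMB2729, a branching enzyme relative (fold 7.97), and EMB2795, the condensin subunit CAP-H (fold 7.37). Those peaks were 573rd, 769th and 955th of the H3K4me2 list. The weakest carriers by fold were EMB3010 (1.92) and EMB3136 (1.96) for H3K4me2, both ribosomal, and the valyl-tRNA synthetase gene EMB2247 (3.01) and EMB2813 (3.18) for H3K36me3. The EMB2247 value is that of the peak covering most of the gene (3501 bp), and a further H3K36me3 peak of 2964 bp on this gene had a fold of 5.94. By width, EMB2753 stood second for H3K4me2 with 2837 bp at a fold of 2.21, and emb2004 second for H3K4me3 with 1839 bp, in a peak that reaches another gene.

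Roles could be given from general knowledge for 112 members in 14 classes, and 48 members were left without one. The classes were formed with earlier results of these data known, and they describe the members. Read against the 92.5% of all EMB genes and the 46.5% of all genes, full classes are what the overall EMB share already gives. Every member carried all 3 marks in 8 of these classes, among them the pentatricopeptide repeat (PPR) proteins that bind organelle RNA (24 of 24), the spliceosome and mRNA modification genes (12 of 12), the plastid ribosome (8 of 8), the aminoacyl-tRNA synthetases (6 of 6), plastid import and protein quality (6 of 6) and translation factors or GTPases (6 of 6). The nuclear pore and import genes (4 of 4) and the proteasome subunits (2 of 2) complete them.

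The first 2 members by EMB number of each class with 3 or more genes give examples over different kinds of work. The PPR gene EMB175 had folds of 3.99 for H3K4me2, 9.96 for H3K4me3 and 5.91 for H3K36me3, and EMB975 had 2.67, 9.71 and 5.79. Of the splicing genes, EMB140 (a SART3 relative) had 4.05, 9.70 and 4.83 for the same marks, and emb1220 (PRP31) had 2.68, 7.70 and 5.69. The plastid GTPase gene EMB269, of the Obg family, had 5.75, 11.4 and 7.48, and EMB2001, also a GTPase gene, had 3.82, 10.55 and 5.96. Among organelle RNA factors, the plastid helicase gene EMB25 had 4.25, 10.9 and 7.28, and EMB93, of the mTERF family of organelle gene expression, had 3.08, 10.6 and 6.71. The import gene emb1211 (TIC100) had 3.78, 11.7 and 7.66, and the chaperone partner gene EMB1241 (GrpE) had 3.24, 9.84 and 5.50. At the nuclear pore, emb2734, an importin beta relative, had 4.15, 10.7 and 7.38, and EMB2766 (NUP62) had 3.65, 11.2 and 6.80. The enzyme genes EMB1075 (serine decarboxylase) and EMB1144 (chorismate synthase) had H3K4me2 folds of 2.08 and 2.61, with 10.8 and 10.2 for H3K4me3. For tRNA work, emb1067 (tRNA phosphotransferase) had 3.43, 10.1 and 6.67, and EMB1687, a subunit of RNase P and MRP, had 4.42, 9.09 and 5.43. Over all 26 such genes of 13 classes, 25 carried each mark, and EMB2271 carried none. Folds of the 25 ran from 1.98 to 6.64 for H3K4me2, from 7.48 to 12.5 for H3K4me3 and from 4.51 to 8.48 for H3K36me3. For H3K4me3 some later members of the same classes lay below this range, among them emb2191 at 3.23, EMB2795 at 3.90, EMB1586 at 4.60 and EMB3127 at 5.08. EMB2761 lay above it, at 12.8.

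H3K4me2 peaks were weak on genes for ribosomal proteins and tRNA synthetases, but not on those for translation factors or GTPases, whose median fold was 3.62 (2.09 to 5.75). Median H3K4me2 folds were 2.33 on the plastid ribosome genes (1.96 to 3.00) and 2.38 on the synthetase genes (2.01 to 3.05), below the 3.47 of all carriers. Their H3K4me3 folds had medians of 9.69 and 10.1, above the 8.96 of all carriers. Plastid ribosome genes emb1473 (L13) and emb2184 (L31) had H3K4me2 folds of 2.32 and 2.65, and synthetase genes emb1027 (arginine) and EMB1030 (alanine) 3.05 and 2.97. On the 5 cytosolic ribosome genes H3K36me3 was strong, with a median fold of 8.34 (6.79 to 8.42), and H3K4me2 was either unlisted or at folds of 1.92 to 2.28. They are emb2386 (L19), EMB2296 (L8), emb2171 (L23), EMB1080 (S11) and EMB3010 (S6). Such proteins are encoded by closely related copies that can share reads, so the peaks of these genes are uncertain.

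Genes for DNA replication and chromosomes stood at the other end by their medians. Their H3K4me2 folds had the highest median of the 14 classes, 4.49 (3.29 to 8.02), and their H3K36me3 folds the lowest, 4.43 (3.18 to 6.24), beside 3.47 and 5.71 for all carriers. H3K4me3 was also at its lowest class median here, 8.32 (3.90 to 9.62), beside 8.96. EMB1968, for the clamp loader subunit RFC4, had folds of 4.49 for H3K4me2, 7.48 for H3K4me3 and 4.51 for H3K36me3. The condensin gene EMB2656 had 8.02, 6.40 and 3.90 for these marks. Not every gene of the class was like this. The gene emb1379, for the SMC complex subunit NSE1, had 6.64, 9.31 and 5.80, so only its H3K4me2 fold followed the class. EMB2773 (SCC2) went the other way for each mark, with 3.36, 9.62 and 6.24. The H3K4me2 folds of EMB2775 (3.29) and EMB2813 (3.40) also lay below the 3.47 of all carriers.

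**Figure D5:**
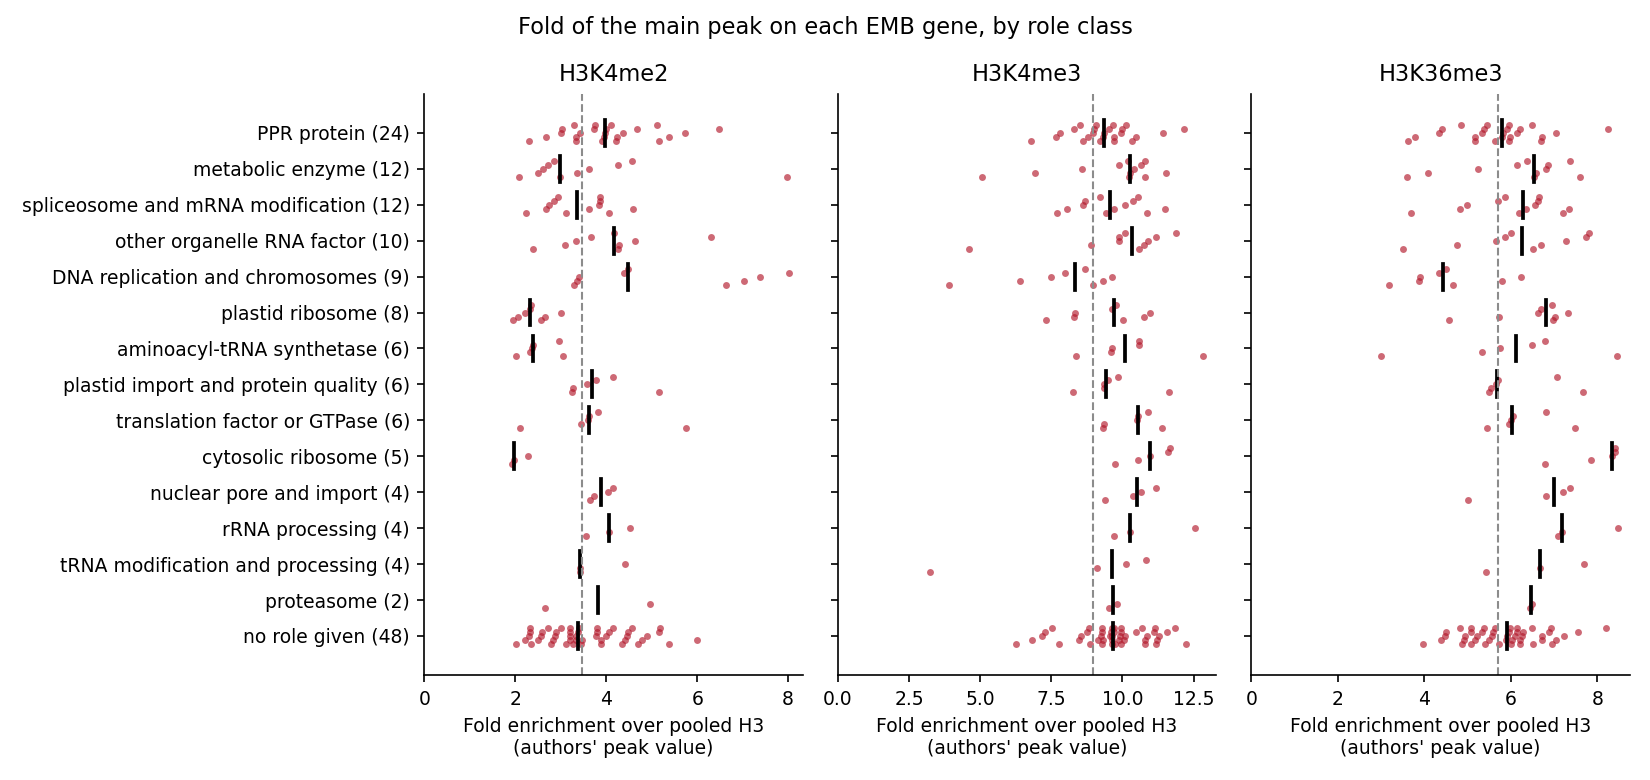
Each point is the fold over pooled H3 of the peak covering most of an EMB gene that carries the mark, by role class (number of genes in brackets), with class medians as black bars and the median of all carriers as a dashed line. Replication and chromosome genes sit at a median of 4.43 for H3K36me3 and 4.49 for H3K4me2, and cytosolic ribosome genes at 8.34 for H3K36me3.

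The 12 EMB genes outside the state with all 3 marks were spread over 6 states. Of the 18 gaps they hold, counted as a gene and a mark it did not carry, none had any base of the gene under a listed peak, so none was a near miss of the 200 bp rule. The carriers nearest to the rule were emb2191 for H3K4me3 (297 bp, then EMB2795 with 478 bp and EMB1586 with 490 bp), emb2204 for H3K4me2 (354 bp, then EMB2743 with 383 bp and EMB3105 with 407 bp) and EMB3123 for H3K36me3 (587 bp, then EMB1687 with 720 bp and EMB1793 with 751 bp). Peaks are numbered along the genome and the numbers have holes. At 15 of the 18 gaps 1 or more numbers were missing between the neighbouring peaks of the list, so a peak that was called but dropped may lie there. Holes are common throughout the lists, and the neighbouring peaks can lie away from the gene. The same count was not made for all genes without a peak, so the 15 describe these gaps only.

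In 4 of the exceptions H3K4me3 and H3K36me3 were present and H3K4me2 was not listed. This state held 2.5% of EMB genes, close to the 2.63% of all genes. The ribosomal genes emb2386 (AT1G02780) and EMB2296 (AT2G18020) had strong trimethyl peaks, at 11.6 and 9.74 for H3K4me3, and at 8.40 and 6.79 for H3K36me3. For emb2386 the H3K4me3 peak ran on chromosome 1 from 608422 to 609451 and the H3K36me3 peak from 608241 to 609431. EMB1793 (AT1G76060), a gene of 751 bp, was covered from end to end by both, at folds of 9.62 and 4.88, and the H3K36me3 peak also covers 309 bp of the next gene. EMB1586 (AT1G12770), also named ISE1, encodes a mitochondrial RNA helicase, and its peaks were weak, with an H3K4me3 fold of 4.60 on chromosome 1 from 4351191 to 4351680 and an H3K36me3 fold of 3.51 from 4351199 to 4352604.

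H3K36me3 was missing from 7 EMB genes. EMB2795 (AT2G32590), for condensin CAP-H, had the widest H3K4me2 peak of all members, 3032 bp on chromosome 2 from 13830307 to 13833338, over 74.8% of the gene. Its H3K4me3 peak, from 13832838 to 13833315, was the second weakest of the members at a fold of 3.90. The gene emb1692 (AT5G62990) likewise had H3K4me2 (fold 3.39) and H3K4me3 (fold 6.82) without H3K36me3. The state of these 2 genes held 1.25% of EMB genes, beside 12.9% of all genes. H3K4me3 alone was found on emb2191 (AT1G48175), which encodes the tRNA adenosine deaminase TAD2, at the lowest fold of the members, 3.23 over 297 bp, and on EMB3127 (AT4G00620), for an enzyme of folate metabolism, at a fold of 5.08. That state held 1.25% of EMB genes, beside 0.517% of all genes. The partner of TAD2 in tRNA editing, TAD3, is encoded by EMB2820, which carried all 3 marks at folds of 3.43, 10.8 and 7.69.

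The last 4 exceptions lacked H3K4me3. EMB2813 (AT1G67320), for the large subunit of DNA primase, carried H3K4me2 at a fold of 3.40 on chromosome 1 from 25208248 to 25209085 and H3K36me3 from 25206675 to 25209070 at a fold of 3.18, which stands at percentile 1.59 of the H3K36me3 list. H3K4me2 with H3K36me3 is a rare state, held by 0.248% of all genes. H3K4me2 alone was found on emb2204 (AT1G22090, fold 3.20) and EMB2743 (AT3G20400, fold 2.35). The emb2204 peak has its summit inside the gene but also covers 211 bp of a neighbouring gene. The EMB2743 peak has its summit outside that gene of 420 bp, so neither peak can be given to the member alone. EMB2271 (AT4G21130), a gene for a protein of the U3 snoRNP that acts on ribosomal RNA, was the member with no listed peak of any mark. No left-out peak number lay around EMB2271 or EMB2743 for H3K36me3, or around emb2204 for H3K4me3.

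Peaks shared with a neighbour bear on few of these calls. The main peak also covered 200 bp or more of another protein-coding gene for 8 of 153 EMB carriers of H3K4me2 (5.23%), 13 of 156 of H3K4me3 (8.33%) and 12 of 153 of H3K36me3 (7.84%), beside 5.92%, 7.59% and 8.23% of all carriers. When a summit inside the gene was required, 145 EMB genes (90.6%) had all 3 marks, against 44.8% of all genes, and emb2004, EMB2804 and EMB3120 left the state. The count stayed at 148 EMB genes with 100 bp, with 400 bp, or with 50% of the body allowed in genes under 400 bp, against 46.7%, 45.7% and 46.6% of all genes.

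Stricter rules changed the picture. With only the strongest 50% of each list, all 3 marks were on 31.2% of EMB genes, against 9.07% of all genes. By mark these shares were 54.4% of EMB genes for H3K4me2, against 40.6% of all genes, 76.2% for H3K4me3, against 33.2%, and 63.7% for H3K36me3, against 25.6%. When the lists were trimmed to the same number of peaks, all 3 marks were on 61.3% of EMB genes, against 26.7% of all genes. With 50% of the gene body required, H3K4me2 was on 26.2% of EMB genes and thus less often than on all genes (34.3%), and H3K4me3 was on 19.4%, close to the 19% of all genes. H3K36me3 was then on 83.1% of EMB genes, against 42.4% of all genes. All 3 marks were on 11.9% of EMB genes under that rule, against 8.54% of all genes, and H3K36me3 alone was the main state, on 53.8% of EMB genes, against 22.96% of all genes. EMB genes are longer than most genes, and the shares under that rule were not read by length class.

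Genes whose EMB number is kept only as a synonym were close to the EMB genes. There were 96 of them, and 83 (86.5%) carried all 3 marks, beside 46.5% of all genes. H3K4me2 was on 87 (90.6%), H3K4me3 on 91 (94.8%) and H3K36me3 on 89 (92.7%), beside 74.8%, 62.5% and 49.8% of all genes. These shares were not read by gene length. The 13 without all 3 marks included 6 with H3K4me3 and H3K36me3 alone (6.25% of the set, beside 2.63% of all genes). Examples were UBQ1 (folds 11.2 and 8.93), YDA (11.2 and 6.29) and RPE (10.4 and 7.08). No mark was found on MEA, NAC007 and RLP37, and H3K4me2 alone on the embryo regulator LEC1 (fold 5.02) and on AGL81 (fold 7.47). These states held 3.1% and 2.08% of the set, beside 21.7% and 15.2% of all genes.

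Other genes of embryo development fell into contrasting groups. A list of 28 genes recalled as needed in the embryo or seed under another name, of which 8 have an EMB number among their synonyms, had all 3 marks on 24, beside 46.5% of all genes. All 28 carried H3K4me3 and 27 carried H3K36me3, beside 62.5% and 49.8% of all genes. These are long genes, with a median of 5032 bp, and 78.0% of all genes of 5000 bp or more carried all 3 marks. GN, an ARF exchange factor of vesicle transport, had folds of 2.83 for H3K4me2, 11.5 for H3K4me3 and 6.03 for H3K36me3. The exception for H3K36me3 was KN, the syntaxin of cell division, with an H3K4me2 fold of 7.85 and an H3K4me3 fold of 3.68. RSW10 stands on this list although it is best known from roots, and it carried all 3 marks.

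Regulators of embryo pattern and identity rarely carried H3K36me3. Of 25 such genes, 20 had H3K4me2, 9 had H3K4me3 and 2 had H3K36me3, beside 74.8%, 62.5% and 49.8% of all genes. Their median length was 2240 bp, near the 2078 bp of all genes and far below that of the embryo and seed lethals, so the 2 lists differ in length as well. The auxin response repressor gene BDL and the root patterning gene SCR were the 2 with all 3 marks. H3K4me2 alone was found on 12 of the 25, beside 15.2% of all genes. Among them were the seed regulators LEC1, LEC2, FUS3 and ABI3 at folds of 5.02, 3.86, 1.99 and 2.75. No mark was found on 4 of the 25 (STM, PLT1, WOX8 and WOX9), a share below the 21.7% of all genes. The H3K4me3 peaks of MP, TMO5, SHR, ATML1 and PDF2 had folds of 2.98 to 3.62, below the value of 7.06 under which 25% of all carriers lie. Several of these regulators had appeared in earlier results of these data, so their pattern is a description beside the EMB genes.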

How the data were processed

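Whole Arabidopsis seedlings gave libraries of native ChIP and of MNase-cut chromatin. Reads were handled with Trimmomatic 0.33, Bowtie2 2.2.6, SAMtools 1.3 and Picard 2.2.4, and MACS2 is named, per the submitters' processing notes, which give no settings in the sources used here. The deposited peak lists (TAIR10) hold, for each peak, the authors' score, a fold ratio of mark over pooled H3, a −log10 p, a −log10 q and a summit. The deposited score and −log10 q were not analysed. Peak names show that libraries were pooled, but not which ones. Of the numbers used for peaks, 62.8% (H3K4me2), 76.3% (H3K4me3) and 62.8% (H3K36me3) are listed.

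Genes, names and lengths came from a RefSeq table of TAIR10.1, whose gene coordinates are not printed. Covered bases were computed with Python 3.11.15, NumPy 2.4.6 and pandas 2.3.3, and the step was checked on simulated peaks. For each gene and mark, the peak covering most of the body gave fold and −log10 p. No test was run, as each list is 1 pooled sample. Depth is unknown, and no count or interval could be given.

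The members and lists were chosen with earlier results of these data known. Roles come from general knowledge, because the gene table holds no descriptions, in place of planned keyword classes. Genes were named by rule: every exception; per mark the 3 highest −log10 p, 2 widest peaks and 2 lowest folds; the first 2 by EMB number in classes of 3 or more; and the 3 nearest to the 200 bp rule on either side. The genes emb2410, EMB2016, EMB2773, EMB2775, EMB2804, EMB2820, EMB3120 and the examples from other lists were chosen after their values were seen. Alternatives were other cover rules, stricter lists and a wider choice of names.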

Additional observations from a re-analysis of the deposited data

How the results depend on the processing

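The share of EMB genes with all 3 marks was the same with 100 bp, with 400 bp and with the rule for short genes, and within 1.5 times of it with an inner summit or with synonyms included. With 50% of the body required, H3K4me2 was on 26.2% of EMB genes, H3K4me3 on 19.4% and all 3 marks on 11.9%. The other states then held 0.625% (H3K4me2 and H3K4me3), 6.88% (H3K4me3 and H3K36me3), 10.6% (H3K4me2 and H3K36me3), 3.12% (H3K4me2), 0% (H3K4me3), 53.8% (H3K36me3) and 13.1% (none). With the strongest 50% of peaks, H3K4me2 was on 54.4%, H3K36me3 on 63.7% and all 3 marks on 31.2%, and the other states in the same order held 10%, 30%, 1.25%, 11.9%, 5%, 1.25% and 9.38%. With equal numbers of peaks, all 3 marks were on 61.3%, H3K4me2 and H3K4me3 on 0.625%, H3K4me3 and H3K36me3 on 31.9%, H3K4me2 and H3K36me3 on 1.88%, H3K4me3 alone on 0%, H3K36me3 alone on 0.625% and none on 2.5%. With 400 bp, H3K4me2 alone was on 0%, H3K4me3 alone on 0.625% and none on 2.5%. With an inner summit, H3K4me2 and H3K36me3 were on 1.88% and none on 1.25%. With synonyms included, H3K4me3 and H3K36me3 were on 3.91%, H3K4me2 and H3K36me3 on 0.391%, H3K4me3 alone on 0.781% and none on 1.56%. Fewer listed peaks, or more bases required, can only lower each mark's own share. The median folds and covered lengths moved by less than 1.5 times under the alternatives run for them. No paired analysis was possible because the deposited lists pool the libraries and hold no value for a single sample. For the same reason no library could be left out, and depth cannot be given for any value.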

Other observations

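More than 1 H3K4me3 peak lay on 15 EMB genes, and on 11 of these at least 2 peaks covered 200 bp or more each. A single H3K4me3 peak was found on 90.4% of EMB carriers, against 94.7% of all carriers. For H3K4me2 the order was the other way, with a single peak on 94.1% of EMB carriers, against 90.2% of all carriers. Cover of 80% or more of the gene body by H3K4me2 was seen on 9 EMB carriers (5.88%), against 12.3% of all carriers. The covered share falls with gene length, and EMB genes are longer. Median H3K4me2 cover by length class, from the shortest, was 61.3%, 46.9%, 33.3% and 20.3% in EMB carriers. In all carriers it was 69.6%, 49.5%, 35.3% and 19.5%. For H3K36me3 it was seen on 22 EMB carriers (14.4%), against 16.0% of all carriers.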
